A study of Mus musculus with 4 samples.

Results

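Astrocyte-like nuclei were the nuclei of mouse medial prefrontal cortex with the highest combined level of 5 astrocyte genes, and 420 of 13270 nuclei that passed quality limits made up the group. The nuclei came from C57BL/6J mice aged 9 weeks whose prefrontal cortex expressed scFLARE2 together with TRE-mCherry-p2a-bReaChES, a reporter system in which light and intracellular calcium together switch on mCherry and an opsin. The labels list 2 DOI samples (1 female and 1 male) and 2 Saline samples (1 female and 1 male), taken 24 hours after the injection, all carrying the reporter system. DOI is a psychedelic agonist of serotonin 5-HT2 receptors. The labels used here do not state which promoter drove the reporter or how many animals each sample held. Nuclei were isolated from frozen tissue and profiled with 10x Genomics 3′ chemistry, and all 4 libraries lay in a single matrix of 22402 barcodes and 32287 features whose barcode endings, 1 to 4, matched no sample label. The matrix was therefore treated as 1 sample, DOI and Saline could not be told apart, no test was made, and the 4 libraries are given by number as 4 unlabelled values.

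A nucleus was kept with at least 500 genes, at least 800 unique molecular identifiers (UMIs, each marking an original RNA molecule) and at most 5% of UMIs from mitochondrial genes. Its score was the mean over Slc1a3, Gja1, Aqp4, Gli3 and Slc4a4 of the natural log of 1 plus UMIs per 10000, and the 420 highest scores among nuclei with at least 3 of the 5 genes were taken. The scores ran from 2.80 down to 1.325 with a median of 1.76. The lowest members scored 1.325 and 1.327, and the highest nuclei left out scored 1.322 and 1.321, so the limit cut through a continuous range: 38 members lay within 0.1 above it and 27 other nuclei within 0.1 below it. Of the members, 88 held UMIs of all 5 genes, 206 of 4 and 126 of 3. A further 258 nuclei held at least 3 of the genes without being members, of which 141 were excitatory neuron-like by their own markers and 87 led with the astrocyte genes.

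Astrocytes are the glia that clear transmitter and potassium from around synapses, contact blood vessels with their endfeet, store glycogen and supply neurons with lactate, glutamine and cholesterol. Neighbouring astrocytes are joined by gap junctions into networks. They respond to neuromodulators and glucocorticoids, and after injury they raise intermediate filaments such as Gfap. In healthy mouse cortex Gfap is low in most astrocytes of the grey matter and high near the pial surface and in white matter.

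The members had a median of 3860.5 UMIs (954 to 22889) and 1973.5 genes per nucleus, and 1807375 UMIs in sum. The 12850 other kept nuclei had a median of 9157 UMIs and 130114390 UMIs in sum. The median mitochondrial share was 2.36% in members and 1.51% in the other nuclei. Libraries 1 to 4 gave 124, 132, 70 and 94 members, which were 2.88%, 3.71%, 4.39% and 2.46% of their kept nuclei, and the members' median depth was 3180, 3739, 4465.5 and 5000 UMIs in the same order. Library 3 had the lowest and library 4 the highest median mitochondrial share among members, 1.20% and 3.46%. Among barcodes above the limit on mitochondrial UMIs, 173 held at least 3 of the astrocyte genes and scored no lower than the lowest member. They are not a count of members lost, since membership went by rank. At a limit of 20% mitochondrial UMIs there were again 420 members, and the lowest scored 1.554. A doublet score above 0.25 marked 6 members, and 1 member shared its barcode sequence with a kept nucleus of another library.

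Levels below are UMIs of a gene summed over nuclei per 1000000 UMIs (CPM), with a 95% exact conditional binomial interval on the log2 ratio. UMIs pooled over nuclei and libraries give an interval that covers counting error only. A gene with at least 100 UMIs in the nuclei compared was called higher or lower where the ratio was at least 2 or at most 0.5 with the same sign in each library that held a UMI. This is a rule of size and not a test, and since members were picked by 5 genes of the same profiles, every level against the other nuclei is a description. A count of 3 UMIs in the members corresponds to 1.66 CPM, the limit that a count of 0 allows.

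The 5 genes used by the rule stood in the members at 2511 CPM for Slc1a3 (the glutamate transporter GLAST), 1201 for Slc4a4 (a sodium bicarbonate cotransporter), 617 for Gli3 (a hedgehog transcription factor), 286 for Gja1 (connexin 43) and 177 for Aqp4 (the endfoot water channel). The same genes stood at 33.2, 77.0, 2.97, 6.39 and 4.90 CPM in the other nuclei. Slc1a3 was detected in 100% of members, Slc4a4 in 95%, Gli3 in 88.8%, Gja1 in 63.3% and Aqp4 in 43.8%. The files use mouse build mm10, in which Slc1a3 (ENSMUSG00000005360) is the protein-coding gene at chr15:8634124-8710764 on the minus strand. These values chose the nuclei and carry no weight as evidence.

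The label was checked against markers of other cell types. Sums of 5 neuron markers (Rbfox3, Snap25, Syt1, Stmn2, Celf4) came to 1060, 948, 450 and 1129 CPM in members of libraries 1 to 4, against 6107 CPM in the other nuclei, and none of the 5 was at 0. As a share of the level in its own class, a neuron marker reached 9.89% to 71.9% in members with a median of 11.5%. Excitatory markers reached a median of 13.4%, inhibitory markers 7.24%, oligodendrocyte markers 4.29%, microglia markers 3.64% and oligodendrocyte precursor markers 1.03%. The 5 endothelial markers summed to 6.09 CPM in members, with Cldn5 at 0, and the 10 ependymal markers summed to 29.9 CPM, with 3 of the 10 at 0. Among excitatory markers Neurod6 reached 56.3%, Slc17a7 52.9% and Arpp21 9.08%, and Stmn2 was the neuron marker at 71.9%. Transcripts of neurons were thus present in every library of members, and their part in the results below was not tested.

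**Figure D1:**
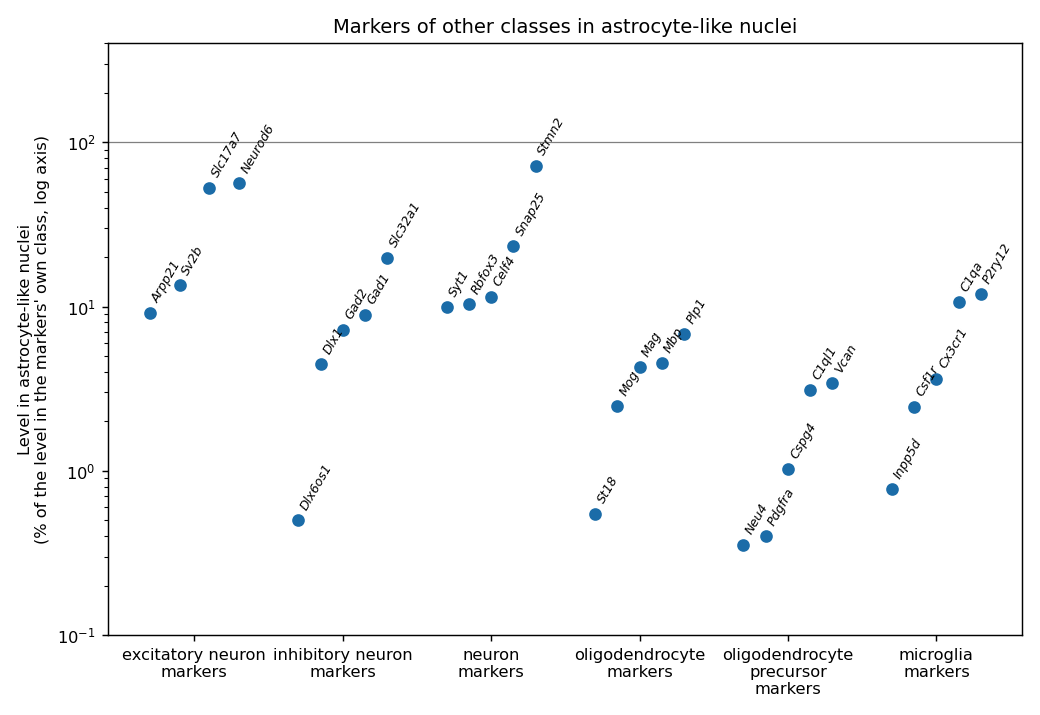
Level of markers of other cell classes in astrocyte-like nuclei, as a percent of the level in the nuclei of that class (vertical log axis), 1 point per marker shown, with the marker lists from left to right. Over each whole list, excitatory neuron markers have the highest median, 13.4%, and oligodendrocyte precursor markers the lowest, 1.03%.

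The levels of a pericyte and a fibroblast marker were higher in members. Pdgfrb, the platelet-derived growth factor receptor that marks pericytes, had 64.2 CPM in members against 1.10 CPM in the other nuclei, and it lay at 84.2, 53.5, 76.4 and 49.7 CPM in members of libraries 1 to 4. Col1a2, a collagen chain of fibroblasts, had 37.6 CPM in members against 0.90 CPM in the other nuclei. The markers beside them did not go along: Rgs5, Vtn, Acta2 and Dcn had at most 4 UMIs in all 420 members, Slc6a13 had 1, and Abcc9 and Lum had none. Col1a1 had 7.19 CPM in members against 4.70 CPM in the other nuclei.

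The genes described next come from 22 lists of astrocyte functions, signalling pathways and states, which hold 419 genes outside the 5 of the rule. Of these, 372 had enough UMIs, and 189 were called higher and 48 lower. Across all 16781 genes with enough UMIs, 2499 (14.9%) were called higher and 2683 (16.0%) lower, beside 50.8% and 12.9% of the list genes. The lists were drawn up for astrocytes with results of these data known, so this contrast is a description. The median log2 ratio was 0.20 over all genes, and rescaling by a trimmed mean moved every log2 ratio down by 0.19. The medians of the transmitter receptor and immediate early gene lists lie closer to 0 than that and have no direction. At a limit of 1% mitochondrial UMIs only 92 members were left, with scores down to 0.20, and the calls of list genes came to 74 higher and 4 lower. There the log2 ratios of Cdon (0.24), Erbb4 (0.21) and Htr2c (0.55), described below as lower, turned positive.

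**Figure D2:**
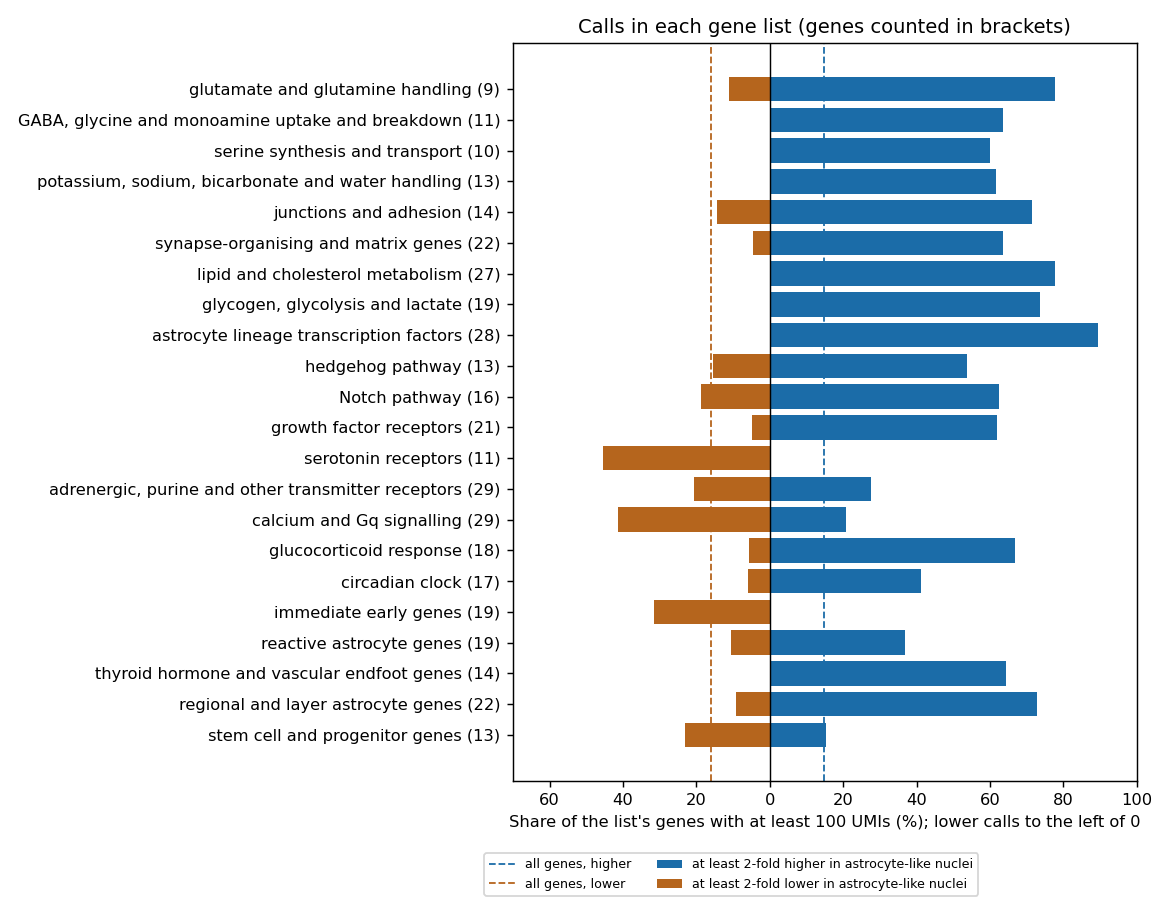
Share of each list's genes with at least 100 UMIs (horizontal axis, percent) called higher (right) or lower (left) in astrocyte-like nuclei than in all other kept nuclei, with the lists down the page and dashed lines at the shares over all genes. Among the lists drawn, the transcription factor list has the largest share of higher calls, 25 of 28 genes, and serotonin receptors the largest share of lower calls, 5 of 11.

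Glutamate handling was high in the members, with 7 of 9 genes called higher and 1 lower, and a median log2 ratio of 3.67. Slc1a2, the main glutamate transporter of the forebrain (GLT-1, chr2:102658659-102790784, plus strand), lay at 6767, 7778, 8541 and 7424 CPM in members of libraries 1 to 4, against 432, 459, 400 and 515 CPM in the other nuclei. The 2 sets did not overlap, and the log2 ratio was 4.04 (95% interval 4.01 to 4.06). How many of all genes show no such overlap is not given here. Glul, which makes glutamine from glutamate, had 494 CPM in members against 38.8 CPM in the other nuclei. Slc7a11, the cystine and glutamate exchanger, had 323 CPM in members against 7.61 CPM in the others, and Slc38a3, a glutamine carrier, 91.8 CPM in members against 1.86 CPM in the others.

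Uptake and breakdown of GABA and monoamines followed, with 7 of 11 genes called higher and none lower. Slc6a11 (GAT-3), the GABA transporter of astrocytes, had 165 CPM in members against 17 CPM in the other nuclei. Maob, the monoamine oxidase of glia, had 87.4 CPM in members against 3.95 CPM in the others, a log2 ratio of 4.47 (4.20 to 4.73). In serine and glycine metabolism 6 of 10 genes were called higher. They included Gldc, the glycine decarboxylase, at 201 CPM in members against 3.51 CPM in the others, Slc7a10, a serine carrier, at 171 CPM in members against 3.0 CPM in the others, and Phgdh, the first enzyme of serine synthesis, at 38.7 CPM in members against 4.12 CPM in the others.

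Among 13 genes of ion and water handling, 8 were called higher and none lower. Slc39a12, a zinc importer, had 443 CPM in members against 4.84 CPM in the other nuclei. Atp13a4, a P5-type ATPase (chr16:29395853-29544864, minus strand), had the highest ratio among annotated genes with at least 500 UMIs outside the 5 of the rule: 226 CPM in members against 1.04 CPM in the other nuclei, a log2 ratio of 7.77 (7.48 to 8.06). It was detected in 55.5% of members.

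**Figure D3:**
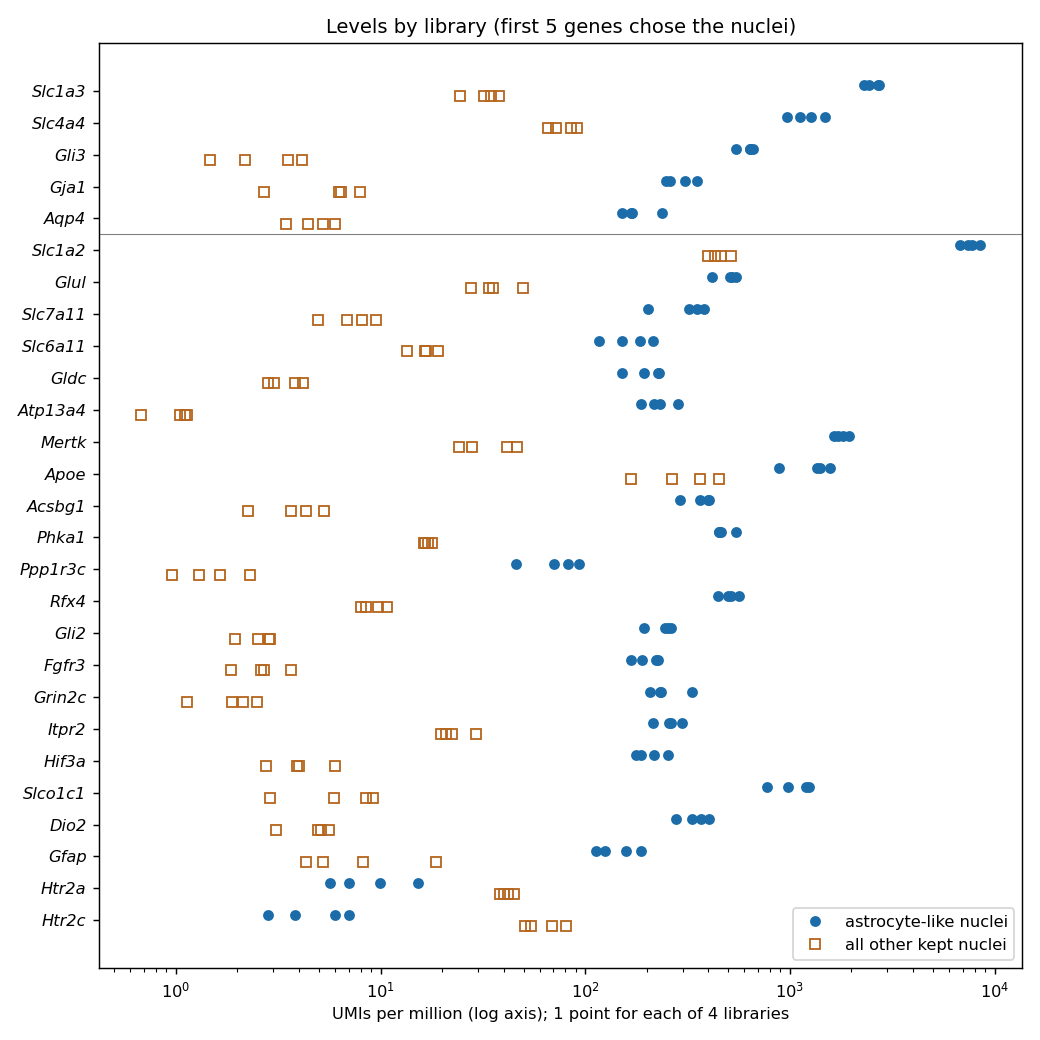
CPM of named genes in each of the 4 libraries (horizontal log axis), filled circles for astrocyte-like nuclei and open squares for all other kept nuclei. The first 5 genes chose the nuclei. Below the line, every gene's members lie apart from the other nuclei, to the right except for Htr2a and Htr2c, which lie to the left. The share of all genes that lie apart in this way is not given.

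Junction and adhesion genes had 10 of 14 called higher and 2 lower. Gjb6 (connexin 30), the second gap junction protein of astrocytes, had 165 CPM in members against 2.26 CPM in the other nuclei. Hepacam, an adhesion protein of astrocyte junctions, had 356 CPM in members against 13.8 CPM in the others. Nkain2, which encodes a sodium pump interacting protein, was lower at 655, 543, 249 and 320 CPM in members of libraries 1 to 4, against 4480, 4784, 4342 and 4301 CPM in the other nuclei, a log2 ratio of -3.32. The members' value was lowest in library 3, where the summed neuron markers were also lowest. Nkain2 was not highest in neurons, at 8720 CPM in oligodendrocyte-like and 4670 CPM in excitatory neuron-like nuclei. A single member held 97 of the 813 UMIs in members.

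Genes of blood vessel contact and thyroid hormone handling had 9 of 14 called higher and none lower. Slco1c1, which carries thyroid hormone into the brain (chr6:141524368-141570177, plus strand), lay at 985, 1243, 1193 and 775 CPM in members of libraries 1 to 4, against 9.16, 8.45, 2.88 and 5.93 CPM in the other nuclei. The log2 ratio was 7.21 (7.09 to 7.32), and 89.5% of members held a UMI. The gene was also present in the 16 endothelial-like nuclei, at 644 CPM from 49 UMIs. Dio2, the deiodinase that activates thyroid hormone, had 345 CPM in members against 4.90 CPM in the other nuclei. Lama2, a laminin chain of the basement membrane, had 621 CPM in members against 16.3 CPM in the others, and Ezr (ezrin), which shapes fine astrocyte processes, 145 CPM in members against 3.79 CPM in the others. Dtna, a dystrophin partner at endfeet, had 1572 CPM in members against 265 CPM in the others.

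Synapse and matrix genes had 14 of 22 called higher and 1 lower. Gpc5, a glypican, had 7656, 8374, 9839 and 8722 CPM in members of libraries 1 to 4, against 179, 248, 179 and 192 CPM in the other nuclei, a log2 ratio of 5.42. Mertk, an engulfment receptor, had 1776 CPM in members against 32.7 CPM in the other nuclei. Microglia-like nuclei held 1605 CPM of Mertk, so the gene did not set the members apart from every other glial class. Chrdl1, an astrocyte protein of synapse maturation, had 117 CPM in members against 1.81 CPM in the others. Tnr (tenascin-R) was called lower, at 57.5 CPM in members against 792 CPM in the other nuclei. Of 22 regional and layer genes 16 were called higher and 2 lower, the lower ones including the potassium channel gene Kcnd2 at 546 CPM in members against 1896 CPM in the others.

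Lipid and cholesterol genes had 21 of 27 called higher and none lower. Apoe, the main lipid carrier of the brain, lay at 1354, 1409, 882 and 1580 CPM in members of libraries 1 to 4, against 264, 365, 168 and 449 CPM in the other nuclei. The log2 ratio was 1.98, and library 3 was lowest on both sides. Acsl3 and Acsbg1, which activate fatty acids, had 778 CPM in members against 50.2 CPM in the other nuclei and 360 CPM in members against 4.17 CPM in the others. Cpt1a, which admits fatty acids to mitochondria, had 48.1 CPM in members against 1.47 CPM in the others.

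Glycogen and glycolysis genes had 14 of 19 called higher and none lower. Phka1 and Phkg1, subunits of phosphorylase kinase, had 481 CPM in members against 16.9 CPM in the other nuclei and 367 CPM in members against 7.77 CPM in the others. Pygb, the brain glycogen phosphorylase, had 226 CPM in members against 33.0 CPM in the others. Ppp1r3c, which targets protein phosphatase 1 to glycogen, had 71.4 CPM in members against 1.68 CPM in the others, a log2 ratio of 5.41 (5.09 to 5.73).

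The list of transcription factors known from the astrocyte lineage, which also holds the receptor gene Bmpr1b, had 25 of 28 called higher and none lower. Its median log2 ratio, 3.75, was the highest of the lists. Rfx4 and Glis3 had 505 CPM in members against 9.25 CPM in the other nuclei and 608 CPM in members against 11.1 CPM in the others. Dbx2, a homeobox gene, had 178 CPM in members against 2.43 CPM in the others. Zbtb20 had 4353 CPM in members against 172 CPM in the others and was found in 100% of members.

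In the hedgehog pathway, in which Smo signals through Gli factors when a ligand binds Ptch1, 7 of 13 genes were called higher and 2 lower. Gli2, an activator, lay at 194, 264, 255 and 244 CPM in members of libraries 1 to 4, against 2.85, 2.52, 2.88 and 1.95 CPM in the other nuclei, a log2 ratio of 6.60. Smo, the signal transducer, had 49.8 CPM in members against 1.61 CPM in the other nuclei, and Ptch1 had 211 CPM in members against 34.9 CPM in the others. Cdon, a co-receptor, was lower at 9.41 CPM in members against 41.6 CPM in the others. In the Notch pathway 10 of 16 genes were called higher and 3 lower. Lfng, which modifies Notch receptors, had 62.0 CPM in members against 1.15 CPM in the others, and Notch1 71.4 CPM in members against 3.04 CPM in the others. Maml3, a coactivator, was lower at 39.8 CPM in members against 253 CPM in the others, with 97.5 CPM in members of library 2 and 9.94 to 21.1 CPM in those of the other libraries.

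Growth factor receptors had 13 of 21 called higher and 1 lower. Fgfr3 had 201 CPM in members against 2.88 CPM in the other nuclei, and Egfr 462 CPM in members against 13.7 CPM in the others. Erbb4, a neuregulin receptor of interneurons and oligodendrocyte precursors, was lower at 63.6 CPM in members against 1005 CPM in the others. Of 13 stem cell and progenitor genes with enough UMIs, 2 were higher (Egfr and Hopx) and 3 lower, with Dcx, a gene of immature neurons, at 6.64 CPM in members against 65.3 CPM in the others. Top2a, a gene of dividing cells chosen for its spread among members, had 34 UMIs, of which 31 lay in 2 members of library 1 (17 and 14 UMIs, at 20755 and 10201 UMIs in all). These 2 nuclei held 11 and 2 UMIs of Mki67, a second division gene, and had doublet scores of 0.0586 and 0.0706.

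Of 11 serotonin receptor genes with enough UMIs, 5 were called lower in members and none higher. Htr2a (chr14:74640840-74709494, plus strand) encodes a 5-HT2 receptor at which DOI acts. It lay at 7.02, 15.3, 5.66 and 9.94 CPM in members of libraries 1 to 4, against 38.5, 41.8, 39.9 and 45 CPM in the other nuclei. The log2 ratio was -2.07 (-2.82 to -1.40), and it rested on 18 UMIs in the members. Htr2c had 4.98 CPM in members against 63.9 CPM in the other nuclei, and Htr1f 18.3 CPM in members against 267 CPM in the others. Htr4 and Htr7 had 1 and 2 UMIs in all members, and Htr1d and Htr3a none.

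The share of nuclei with an Htr2a UMI was 4.05% in members (17 of 420, exact binomial interval 2.38% to 6.40%) and 4.81% in microglia-like nuclei (3.0% to 7.25%), at median depths of 3860.5 and 2435 UMIs. With each nucleus thinned to 1500 UMIs, which left out 6 members, the share was 1.45% in members, 2.24% in microglia-like, 1.39% in oligodendrocyte-like, 5.33% in excitatory neuron-like and 7.58% in inhibitory neuron-like nuclei. It was 1.46% in oligodendrocyte precursor-like nuclei, so the members' share lay within the range of the 3 other glial classes, and no order among them is read from it. Htr2b had 42.0 CPM in members against 41.5 CPM in the other nuclei, a log2 ratio of 0.02 (-0.33 to 0.35). After thinning, its share was 6.04% in members, 6.17% in oligodendrocyte-like and 6.33% in excitatory neuron-like nuclei. Htr2b overlaps Psmd1, which is on the opposite strand, and reads of the pair could not be told apart here.

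Other transmitter receptors were mixed, with 8 of 29 genes called higher and 6 lower. Grin2c, an NMDA receptor subunit, lay at 234, 233, 334 and 207 CPM in members of libraries 1 to 4, against 2.48, 2.13, 1.13 and 1.88 CPM in the other nuclei, a log2 ratio of 6.94. Grm3, the metabotropic glutamate receptor of mature astrocytes, had 2301 CPM in members against 367 CPM in the other nuclei. Grm5, its Gq-coupled relative that is known from young astrocytes, and named here for that contrast after its values were seen, went the other way at 256 CPM in members against 1932 CPM in the others. S1pr1, a sphingosine 1-phosphate receptor, had 235 CPM in members against 6.39 CPM in the others. Among the lower genes were Gria1, an AMPA receptor subunit, at 119 CPM in members against 1326 CPM in the others, and Oprm1, the mu opioid receptor, at 11.6 CPM in members against 231 CPM in the others.

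Calcium and Gq signalling had more lower than higher calls, 12 against 6 of 29 genes. Itpr2, the inositol trisphosphate receptor that releases calcium in astrocytes, had 297, 262, 257 and 215 CPM in members of libraries 1 to 4, against 21, 22.3, 29.2 and 19.8 CPM in the other nuclei, a log2 ratio of 3.54 (3.39 to 3.68). Itpr2 was also present in precursor-like (475 CPM) and microglia-like (339 CPM) nuclei. Rgs20, a regulator of G-protein signalling, had 1507 CPM in members against 137 CPM in the other nuclei. Plcb1, a phospholipase that Gq activates, was close on both sides at 1475 CPM in members against 1414 CPM in the others. The calcium release channels Ryr2 and Ryr3 were lower, at 59.2 CPM in members against 928 CPM in the others and 15.5 CPM in members against 408 CPM in the others. Ryr2 lay at 115, 47.8, 14.1 and 55.6 CPM in members of libraries 1 to 4, again lowest in library 3, and a single member held 35 of its 107 UMIs.

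Genes that respond to glucocorticoids had 12 of 18 called higher and 1 lower. Hif3a had 218, 178, 187 and 254 CPM in members of libraries 1 to 4, against 6.00, 3.89, 2.76 and 4.0 CPM in the other nuclei, a log2 ratio of 5.59. Tsc22d3 (GILZ) lay at 180, 95.6, 122 and 163 CPM in members, against 13.8, 10.2, 14.5 and 11.0 CPM in the other nuclei, a log2 ratio of 3.54. Fkbp5, a chaperone of the receptor that was singled out after its values were seen, lay at 276, 109, 136 and 300 CPM in members, against 73.5, 61.5, 73.6 and 66.9 CPM in the other nuclei. For Tsc22d3 and Fkbp5 the members of libraries 1 and 4 lay above those of libraries 2 and 3, while the other nuclei of the 4 libraries lay close together for Fkbp5. Per1, which is in the same list and is described below, was lowest in members of library 4. The 18 genes summed to 2482, 2044, 2296 and 2655 CPM in members of libraries 1 to 4. How many of them share the order was not counted, and the libraries carry no treatment label. Sgk1, a kinase, was lower at 18.8 CPM in members against 126 CPM in the other nuclei. The higher levels differed with the glial class compared. Against oligodendrocyte-like nuclei 4 of 16 genes of this list were called higher and 3 lower, beside 11.5% and 15.6% of all genes. The median log2 ratio there was 0.27. Against oligodendrocyte precursor-like nuclei 7 of 12 genes were called higher and 1 lower, beside 13.6% and 13.5% of all genes. The median log2 ratio there was 1.34. Hif3a was called higher against both classes. Oligodendrocyte-like nuclei held 170 CPM of Tsc22d3 and 216 CPM of Fkbp5, against 139 and 207 CPM in members. Precursor-like nuclei held 4.91 CPM of Tsc22d3 and 121 CPM of Fkbp5.

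Clock genes had 7 of 17 called higher and 1 lower. Nr1d2, a clock repressor, had 139 CPM in members against 48.6 CPM in the other nuclei, and Per3 106 CPM in members against 40.9 CPM in the others. Clock and Bmal1 proteins activate their targets at the E-box CACGTG, which reads the same on both strands, and that sequence was looked for in the 250 bases before each start site of the RefSeq table (GRCm38.p6). It was found for 5 of the 15 clock genes with an entry (Per1, Cry1, Tef, Bhlhe41 and Ciart), beside 6.86% of 27025 genes in the table. Of the 7 clock genes called higher it was found for 2, and their windows are shown with the E-box in capitals, for Per1 at chr11:69098699-69098948 and for Tef at chr15:81811164-81811413, both on the plus strand.
Per1: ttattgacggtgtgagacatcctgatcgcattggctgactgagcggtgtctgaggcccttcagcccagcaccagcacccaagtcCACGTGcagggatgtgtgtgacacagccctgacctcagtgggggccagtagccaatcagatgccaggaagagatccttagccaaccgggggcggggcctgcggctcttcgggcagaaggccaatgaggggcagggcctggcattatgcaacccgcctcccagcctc
Tef: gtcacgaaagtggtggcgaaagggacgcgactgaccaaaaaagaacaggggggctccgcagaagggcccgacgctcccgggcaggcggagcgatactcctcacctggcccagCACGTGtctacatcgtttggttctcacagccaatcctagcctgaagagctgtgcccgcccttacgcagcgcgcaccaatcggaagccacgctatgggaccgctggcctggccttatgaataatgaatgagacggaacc
Per1, a clock repressor chosen here for its match, lay at 81.9, 76.5, 82.0 and 65.6 CPM in members of libraries 1 to 4, against 34.7, 26.3, 30.7 and 35.3 CPM in the other nuclei, a log2 ratio of 1.24 (0.98 to 1.48). Tef, an output factor of the clock, lay at 168, 145, 161 and 173 CPM in members, against 68.5, 57.8, 50.1 and 69.3 CPM in the other nuclei, a log2 ratio of 1.35 (1.17 to 1.52). For both genes every library of members lay above every library of other nuclei. Both were called higher, which already needs the same sign in each library that held a UMI, so this separation adds little. The share of all genes that separate this way is not given here. The table lists a further start site for each, without a match for Per1 and with one for Tef. A second sequence, the STAT motif TTCNNNGAA (N for any base), was also looked for. It was found for 2 of the 15 clock genes, Per1 and Dbp, beside 8.13% of the genes in the table. Both are among the 7 called higher, so the 2 sequences were found equally often in those 7. A match is a description of the letters and not a bound site.

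Immediate early genes, which neurons switch on within minutes of activity, had 6 of 19 called lower and none higher. Npas4, a neuronal activity factor, had 7.19 CPM in members against 34.2 CPM in the other nuclei, and Nr4a1 26.0 CPM in members against 62.6 CPM in the others. Egr1 had 66.9 CPM in members against 52.8 CPM in the others and was not called, with 58.5, 38.2, 76.4 and 97.4 CPM in members of libraries 1 to 4, against 51.8, 50.1, 47.3 and 57.9 CPM in the other nuclei. Its members' values spread over the range of the other nuclei and beyond it on both sides.

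Of 38 genes known from reactive astrocytes 19 had enough UMIs, of which 7 were called higher and 2 lower, and 5 of the 38 had no UMI in members. Gfap (chr11:102887336-102900912, minus strand) lay at 187, 113, 124 and 159 CPM in members of libraries 1 to 4, against 5.21, 8.21, 4.34 and 18.6 CPM in the other nuclei, a log2 ratio of 3.82 (3.62 to 4.01). Stat3, a cytokine signalling factor, had 107 CPM in members against 28.7 CPM in the other nuclei, and C4b, a complement gene, 43.7 CPM in members against 4.80 CPM in the others. Osmr, the oncostatin M receptor, had 28.8 CPM in members against 0.523 CPM in the others, but 23 of its 52 UMIs lay in 1 of the 19 members that held any. Without library 1, 2 or 3 fewer than 100 UMIs were left and the call was lost, at log2 ratios of 5.68, 6.54 and 5.18. Lcn2, an acute-phase gene of strongly reactive astrocytes that was singled out after its values were seen, had no UMI in members.

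Gfap was unevenly spread among the members. It was detected in 82 of 420 nuclei (19.5%, exact binomial interval 15.8% to 23.6%), in 16.9%, 17.4%, 12.9% and 30.9% of the members of libraries 1 to 4. The 18 members with at least 5 Gfap UMIs held 62.0% of its 263 UMIs. Members with a Gfap UMI had a median depth of 4413 UMIs, against 3760 UMIs in members without. Between these groups 24 of 3385 genes (0.709%), Gfap itself among them, were called higher and 28 (0.827%) lower. Of 189 list genes with enough UMIs other than Gfap, 2 were higher, Id3 and Angpt1, and none lower. The genes named from here to the end of the next paragraph were chosen after their values were seen.

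A2m, which encodes the protease inhibitor alpha-2-macroglobulin (chr6:121635376-121679227, plus strand), differed most after Gfap itself. It had 371 CPM in members with a Gfap UMI against 15.9 CPM in members without, a log2 ratio of 4.54 (3.90 to 5.26). A single nucleus held 52 of the 180 A2m UMIs, and without it the level in members with a Gfap UMI was 254 CPM and the log2 ratio 3.99. A2m was detected in 2.96% of 338 members with no Gfap UMI, 7.14% of 42 with 1, 45.5% of 22 with 2 to 4, and 66.7% of 18 with 5 or more. The exact binomial interval was 1.43% to 5.37% with none and 41.0% to 86.7% with 5 or more. Median depths in the 4 classes were 3760, 4092.5, 4491 and 6619.5 UMIs. After thinning to 1500 UMIs the share with A2m was 18.5% in 81 members that held a Gfap UMI before thinning. It was 1.20% in the 333 others. The grouping by Gfap was made before thinning and so still varied with depth, and the part of depth in it was not tested. A2m lay at 119, 84.1, 14.1 and 159 CPM in members of libraries 1 to 4, so it was lowest in library 3. Gfap was also detected least often there, but its CPM was not lowest there. In members with a Gfap UMI A2m lay at 539, 323, 49.9 and 421 CPM in libraries 1 to 4, against 2.99, 28.3, 6.81 and 21.2 CPM in members without. A2m was thus low in library 3 also among members with a Gfap UMI, and that library held 5 A2m UMIs in all. Each library was then left out in turn, a check chosen after seeing the data. The log2 ratio of A2m ran between 4.02 and 5.21, and A2m was called higher each time. Other genes higher in members with a Gfap UMI were Chl1 (log2 ratio 1.67, and 1.11 to 2.13 with a library left out), Adgrv1 (1.90, and 1.5 to 2.25) and Angpt1 (1.60, and 1.41 to 1.84). Chl1 was called each time, Adgrv1 was not called without library 4 and Angpt1 not without library 2. Id3, at 1.01, was not called without any one of the libraries. The genes called higher numbered 16 to 29 and those called lower 18 to 31, and the 18 were those without library 1. Kctd16, Lingo2 and Grm7 were called lower over all 4 libraries, at log2 ratios of -2.09, -1.98 and -1.35, but without library 1 they stood at -0.08, -0.34 and -0.34 and were not called.

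**Figure D4:**
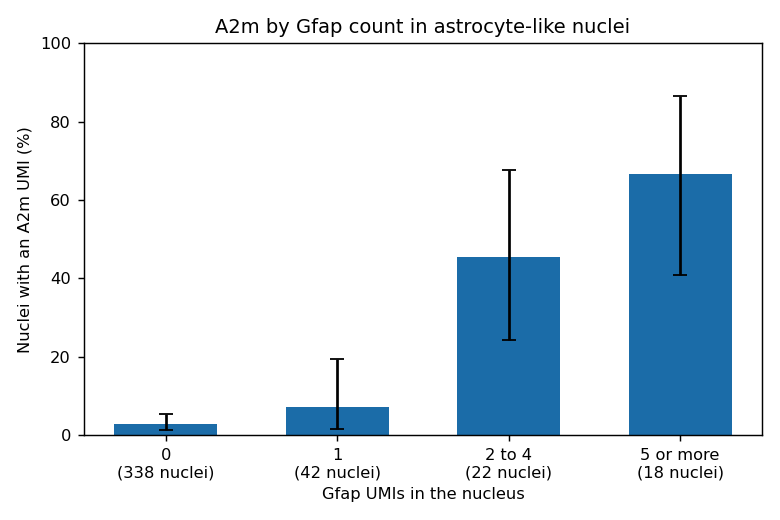
Share of astrocyte-like nuclei with an A2m UMI (vertical axis, percent) by the number of Gfap UMIs in the nucleus, with exact binomial 95% intervals. The intervals take the pooled nuclei as independent and do not cover differences between libraries. The share was 2.96% with no Gfap UMI and 66.7% with 5 or more.

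The members were then set against the oligodendrocyte lineage classes and the most frequent neurons, each assigned by the highest mean score among classes with at least 3 of 5 markers. Against 1192 oligodendrocyte-like nuclei, 1005 of 8748 genes (11.5%) were called higher and 1366 (15.6%) lower, and of 271 list genes 144 were higher and 24 lower. Atp13a4 had a log2 ratio of 7.48 (6.34 to 8.93), Slco1c1 of 6.98 and Gldc of 6.43. Erbb3, a neuregulin receptor of the oligodendrocyte lineage, had no UMI in members against 56.8 CPM in oligodendrocyte-like nuclei, and Sgk1 had 18.8 CPM in members against 303 CPM in oligodendrocyte-like nuclei, a log2 ratio of -4.01.

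Against 275 oligodendrocyte precursor-like nuclei, 750 of 5532 genes (13.6%) were called higher and 749 (13.5%) lower, and of 233 list genes 119 were higher and 19 lower. Lama2 had 621 CPM in members, against 1 UMI in all precursor-like nuclei, a log2 ratio of 9.57 (7.09 to 14.87). Egfr had 462 CPM in members against 4.91 CPM in precursor-like nuclei. Tnr was lower, at 57.5 CPM in members against 4490 CPM in precursor-like nuclei. Gpc5 was present in both, at 8588 CPM in members and 4247 CPM in precursor-like nuclei. Against 8707 excitatory neuron-like nuclei, 2874 of 15845 genes (18.1%) were called higher and 2565 (16.2%) lower, and of 351 list genes 186 were higher and 48 lower. Mertk had a log2 ratio of 8.17 and Gli2 of 8.37 in that comparison. In all, 97 of 229 list genes (42.4%) with enough UMIs in all 3 comparisons were called higher against each of the 3 classes, among them Slc1a2, Glul, Slc7a10, Gjb6 and Hepacam, beside 510 of 5464 genes (9.33%) over the whole table. The 3 comparisons share the members as one side.

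Some genes were shared with other glial classes. Apoe stood at 1341 CPM in members and 2267 CPM in microglia-like nuclei, and Fkbp5 at 207 CPM in members and 733 CPM in microglia-like nuclei. Grm3 stood at 2301 CPM in members and 997 CPM in oligodendrocyte-like nuclei. Car2, a carbonic anhydrase, stood at 68.6 CPM in members and 342 CPM in oligodendrocyte-like nuclei.

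**Figure D5:**
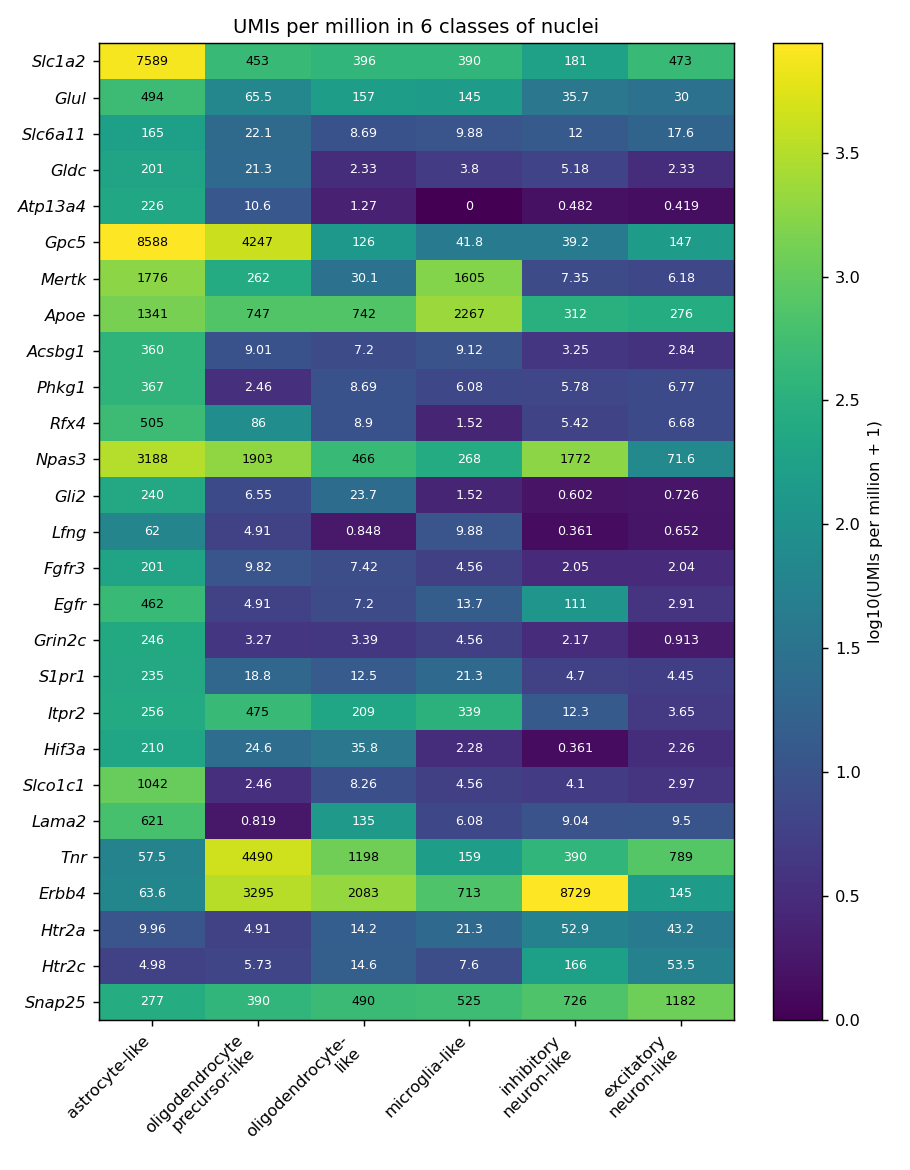
CPM of named genes (rows, value printed in each cell) in 6 classes of kept nuclei (columns), coloured by log10 of CPM plus 1. Slc1a2 is far above the other classes in astrocyte-like nuclei, while Mertk stands at 1776 CPM there and at 1605 CPM in microglia-like nuclei.

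Over all genes with at least 500 UMIs and a gene name outside the predicted, mitochondrial and ribosomal ones, the highest ratios after Atp13a4 and Slco1c1 were those of Etnppl (log2 ratio 7.16), an enzyme of phosphoethanolamine breakdown, Pdgfd (7.0), a growth factor, Grin2c (6.94), and Prdm16 (6.88), a transcription factor. Pdgfd lay at 203 CPM in members and at 447 CPM, from 34 UMIs, in endothelial-like nuclei. Among the lowest ratios was that of Adamts17, with 1 UMI in the members against 66.9 CPM in the other nuclei. Il1rapl2, a synaptic adhesion gene, and Adarb2, an interneuron gene, had 10 and 13 UMIs in members against 406 and 389 CPM in the other nuclei.

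The spread over the 4 libraries of members was small beside most of the ratios above. For 195 list and rule genes with at least 100 UMIs in members, the highest library was a median of 1.43 times the lowest, 110 genes stayed under 1.5 times and 21 reached 2 times or more. Ryr2, Erbb4 and Tnr, all called lower in members, varied most, at 8.11, 5.60 and 4.04 times. For Ryr2 a single member held 35 of the 107 UMIs, and for Tnr a single member held 33 of 104. The highest count in 1 member was 10 of 115 UMIs for Erbb4.

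The reporter transcript TREmcherry was detected in 29 of 420 members (6.90%, exact binomial interval 4.67% to 9.77%), against 9.89% of excitatory neuron-like and 5.26% of microglia-like nuclei. After thinning to 1500 UMIs the share was 2.42% in members, 1.61% in excitatory neuron-like, 1.66% in inhibitory neuron-like, 3.74% in microglia-like and 2.78% in oligodendrocyte-like nuclei. It was 0 of 274 in oligodendrocyte precursor-like nuclei, for which the exact interval reaches 1.34%. TREmcherry and tTA, the second reporter feature, summed to 18.7, 22.9, 0 and 41.7 CPM in members of libraries 1 to 4. The 70 members of library 3 thus held no UMI of either.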

How the data were processed

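Single-nucleus RNA was measured with 10x Genomics 3′ chemistry in 2 DOI and 2 Saline samples. The authors deposited 1 matrix of UMI counts per gene and barcode for the 4 libraries, not normalized. Cell Ranger 7.1.0 and build mm10 are named per the submitters' processing notes. The matrix holds 157575088 UMIs, and the kept nuclei 131921765.

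From the counts, members were chosen by the rule in the text, UMIs were summed over nuclei and scaled to CPM (Python 3.11.15, numpy 2.4.6, scipy 1.17.1, pandas 2.3.3), and classes were assigned by mean marker scores with at least 3 of 5 markers detected. The members and the gene lists were chosen with earlier results of these data known. For genes without a UMI in members, a gene was called lower only where the bound from 3 counts over the group passed 2-fold. Doublets were scored with Scrublet in scanpy 1.11.5 and kept. Named genes were the 5 rule genes, the serotonin receptors, for each list up to 4 genes with the highest CPM and up to 3 with the largest called ratios in each direction, likewise for each class, and the 10 highest and 10 lowest ratios over all genes with at least 500 UMIs. A few genes that the rule names are not reported here. Genes outside this rule are marked in the text as chosen after their values were seen. Positions come from GENCODE M21, which matched 32158 features by ID. The counting's use of strand is not given in the sources used here, so overlapping genes are uncertain. Among genes given with values here, Aqp4, Gli3, Slc1a2, Glul, Slc7a11, Slc7a10, Dtna, Gpc5, Tnr, Mertk, Acsl3, Phkg1, Glis3, Zbtb20, Notch1, Maml3, Egfr, Erbb4, Oprm1, Plcb1, Ryr3, Rgs20, Fkbp5, Per3, Tef, Stat3, Dio2, Lama2, Ezr, Hopx, Pdgfd, Prdm16, Il1rapl2, Htr2b, Htr3a, Rbfox3, Syt1, Celf4, Angpt1, Adgrv1, Kctd16 and Grm7 overlap another annotated gene on either strand. The size rule was tested on simulated data. Intervals on ratios cover counting error only, and those on shares take the pooled nuclei as independent. Neither covers differences between libraries, and with 1 sample no p-value is given. Alternatives were other limits on mitochondrial UMIs, member numbers, doublets, thinning, scaling, the UMI minimum, the fold and leaving out each library.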

Additional observations from a re-analysis of the deposited data

How the results depend on the processing

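No paired analysis was possible because the barcode endings carry no sample label. The reported calls were 189 higher and 48 lower list genes, and 2499 higher and 2683 lower genes in all. At a limit of 1% mitochondrial UMIs they were 74, 4, 557 and 395. With the 600 highest scores the lower calls came to 29 list genes and 1670 genes. Thinning to 1500 UMIs gave 1262 higher genes and a 3-fold limit 1496. The cause of the changes at 1% and with 600 was not tested, while thinning lowers the UMIs per gene and the 3-fold limit is stricter by construction. Without each library in turn the 4 counts were 184 to 186, 45 to 48, 2536 to 2715 and 2659 to 2735. Trimmed mean scaling gave 178, 55, 2005 and 3100. The other settings, with a 20% mitochondrial limit, at least 4 rule genes, 210 members, doublets left out, equal library weights, a lower or no UMI minimum, and without the further nuclei that held 3 rule genes (chosen after seeing the data), stayed within 1.5 times of the reported counts. No list gene was called in the opposite direction under any of these settings. Among 221 named genes, log2 ratios turned sign at 1% for Cdon (0.24), Erbb4 (0.21), Htr2c (0.55), Npy (-0.0116), Pdgfra (1.56), Sox10 (1.40) and Spag17 (0.71), and with 600 members for Pdgfra (0.50). Of 160 called named genes, 102 lost the call at 1%, 25 with 600 members, and 0 to 18 under each other setting. Depth limits the low genes most: 861 of the genes with enough UMIs had none in members.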
